A study of Arabidopsis thaliana with 8 samples.

Results

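The cuticle genes described here are 47 Arabidopsis thaliana genes that make, export or regulate wax and cutin, of 22281 genes in the expression table. They were chosen by function, from a list drawn up with the levels in mutant and wild type already known. Differences between the genotypes in these 47 genes are therefore given as a description, with their spread. Counts of members past a limma threshold stand only beside the share of all genes past it and are not read as tests of these genes. The list holds 18 genes of wax synthesis, 12 of cutin synthesis, 6 of export and 11 of regulation. All 47 reached a mean of 1 FPKM (fragments per kilobase of transcript and per unit of mapped fragments, a level that can be compared between genes because it is divided by length), as did 17706 of all genes.

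The cuticle is the lipid coat that epidermal cells lay on the outer wall of the shoot. Its wax is made in the endoplasmic reticulum from fatty acids that an elongation cycle lengthens, and which are then turned into aldehydes, alkanes and ketones on one route and into primary alcohols and wax esters on the other. Cutin is a polyester of hydroxylated fatty acids and glycerol, joined outside the cell. In young flowers both accumulate while organs grow, and mutants that lack cutin enzymes or the FIDDLEHEAD elongase have floral organs or leaves that fuse.

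The mutant group holds 4 libraries of lsh1 lsh3 lsh4 plants (replicates 5 to 8) and the control group 4 libraries of wild type (replicates 1 to 4), all Col-0 and grown in long days. Each was made from poly-A RNA of inflorescence and floral meristems with flower buds no older than stage 8. Plant age is not given. LSH1, LSH3 and LSH4 are genes of the plant-specific ALOG family, and their alleles are not described in the labels used here. The replicates are called independent, without saying whether they came from separate plants, so the spread between them may be partly technical. LSH4 had 3.79 to 7.25 FPKM in the mutants, against 19.2 to 24.04 FPKM in wild type (limma adjusted p = 0.00773). LSH1 had 2.198 to 4.26 FPKM in the mutants, against 7.38 to 11.9 FPKM in wild type (limma adjusted p = 0.0423). LSH3 overlapped, with 10.2 to 15.6 FPKM in the mutants and 10.5 to 23.3 FPKM in wild type (limma adjusted p = 0.607), so the mutant libraries carry 2 of the 3 transcripts at a lowered level.

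The 5 epidermis markers ATML1, PDF2, PDF1, ACR4 and HDG2 were all present in every library, PDF1 at 577 to 997 FPKM in the mutants and at 667 to 1098 FPKM in wild type. Of the shoot meristem markers, WUS and CLV3, active in few cells, stayed at 1.70 FPKM or below in all 8 libraries, while KNAT1 and STM were well above. KNAT1 had 85.1 to 129.8 FPKM in the mutants and 114 to 130.3 FPKM in wild type. STM had 62.1, 68.9, 66.7 and 69.005 FPKM in mutant replicates 5 to 8, against 89.9, 76.8, 82.7 and 98.6 FPKM in wild type replicates 1 to 4, lower in every mutant (log2 fold change -0.37, SE 0.09, limma adjusted p = 0.145). In the authors' deposited table of differential genes, a separate fit, STM was also lower (log2 fold change -0.38, adjusted p = 0.00745). The part of meristem content in the cuticle values below was not tested. Of 8 tapetum genes, which mark flowers past stage 8, 2 reached a mean of 1 FPKM. Read totals are unknown. In bulk tissue, fewer epidermal cells and less RNA per epidermal cell cannot be told apart, and this holds for every gene below.

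Promoters of epidermal genes often carry the L1 box, the site of the homeodomain proteins ATML1 and PDF2. The 250 bases before each annotated gene start were read from the RefSeq genome and annotation of TAIR10.1. The L1 box, searched as TAAATGCA or TAAATGTA on both strands, was found in 6 of the 47 cuticle windows (12.8%), and in 4.55% of the 22152 windows of all protein-coding genes in the expression table that gave one. The 6 genes were KCS9, KCS10, CUS2, ABCG11, MYB94 and MYB96. The GCC box, a site of ethylene response factor proteins (the family of SHN and DEWAX), was searched as GCCGCC on both strands and found in the GPAT6 window alone (2.13% of members and 1.87% of all windows). In no member did the motifs overlap. A match is a run of letters and says nothing about binding.

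Of these windows 4 are printed, 5′ to 3′ on the gene's strand, because their genes recur below: ABCG11 has 2 L1 boxes, KCS10 is the FIDDLEHEAD gene, CUS2 is the cutin gene that varied most between the mutant libraries, and GPAT6 has the GCC box. Capitals mark the motifs. In CUS2 and GPAT6 the motif reads on the other strand and appears as its reverse complement. The windows lie at chr1:6142152-6142401 (ABCG11, plus strand), chr2:11173279-11173528 (KCS10, minus strand), chr5:12604833-12605082 (CUS2, minus strand) and chr2:15955753-15956002 (GPAT6, minus strand) in TAIR10.1. The L1 boxes begin 82 and 47 bases before the gene start in ABCG11, 54 in KCS10 and 74 in CUS2.
ABCG11: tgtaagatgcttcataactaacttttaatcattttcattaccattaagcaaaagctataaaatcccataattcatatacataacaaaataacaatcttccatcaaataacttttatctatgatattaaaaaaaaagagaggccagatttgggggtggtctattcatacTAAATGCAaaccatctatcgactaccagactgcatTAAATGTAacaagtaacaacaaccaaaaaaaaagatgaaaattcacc
KCS10: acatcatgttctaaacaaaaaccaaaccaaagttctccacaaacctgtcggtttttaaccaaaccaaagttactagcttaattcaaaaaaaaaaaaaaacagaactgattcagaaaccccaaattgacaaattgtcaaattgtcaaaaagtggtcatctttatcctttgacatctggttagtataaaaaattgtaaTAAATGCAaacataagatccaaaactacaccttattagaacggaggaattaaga
CUS2: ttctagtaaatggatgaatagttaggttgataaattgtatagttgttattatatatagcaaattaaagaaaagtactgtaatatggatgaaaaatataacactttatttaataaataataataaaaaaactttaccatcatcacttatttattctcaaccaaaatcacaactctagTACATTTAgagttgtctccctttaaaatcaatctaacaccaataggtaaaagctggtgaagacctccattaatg
GPAT6: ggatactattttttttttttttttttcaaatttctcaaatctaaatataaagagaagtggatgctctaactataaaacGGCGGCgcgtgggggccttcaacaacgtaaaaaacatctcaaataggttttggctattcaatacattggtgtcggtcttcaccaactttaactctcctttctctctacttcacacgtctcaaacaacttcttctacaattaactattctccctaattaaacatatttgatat

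Most cuticle genes had higher mean levels in the mutant, by modest amounts. The log2 fold change of mutant over wild type on the log2(FPKM + 1) scale was positive in 40 of 47 genes, against 47.6% of all genes tested, and its median was 0.36, against -0.01 over all genes tested. None of the 47 passed limma with Benjamini-Hochberg adjustment over all genes (adjusted p under 0.05), a threshold that 0.186% of all genes tested passed. At an unadjusted limma p under 0.05, 19 were higher (6.91% of all genes) and 1 was lower (5.62% of all genes). The genotypes did not overlap in 9 genes. In CER2, KCS6, KCR1, WSD1, GPAT4, ABCG11, LTPG2 and MYB16 every mutant library lay above every wild-type library, which held for 4.15% of all genes, and in MYB30 every mutant library lay below, which held for 3.74%. The genotype contrast was in view when these genes were chosen, so nothing is read from these shares. Without mutant replicate 6 the number of cuticle genes above wild type without overlap was 19 (6.79% of all genes), without mutant replicate 8 it was 13 (6.38%), and without wild type replicate 3 it was 16 (7.74%). With any other library left out it was 8 to 10 (4.74% to 5.91%). Leaving out a library can only keep or raise this count.

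**Figure D1:**
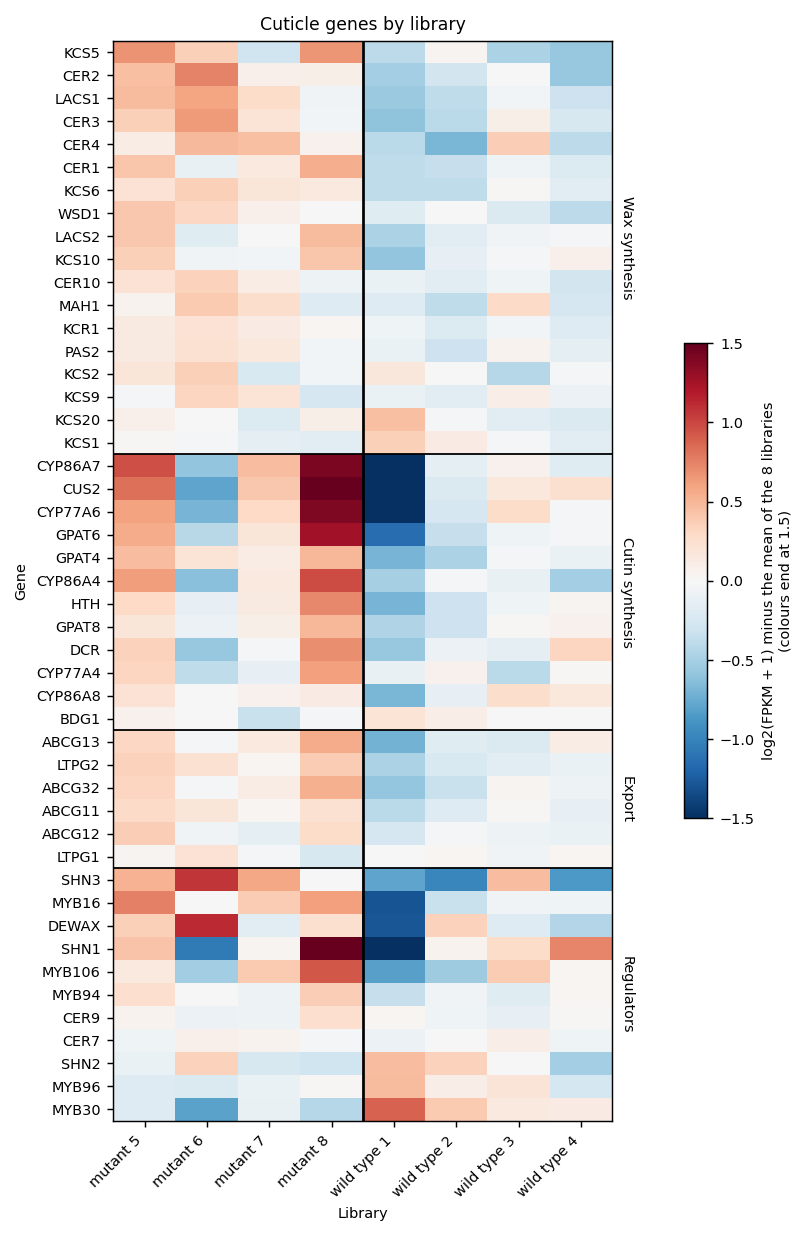
Level of each cuticle gene (rows, by branch and then by difference between genotypes) in each library (columns, mutants left, wild type right), as log2(FPKM + 1) minus the gene's mean over the 8 libraries. Of 18 wax genes, 17, 13, 12 and 10 are above their mean in mutant replicates 5 to 8 and 5 are above it in all 4, while 10 of 12 cutin genes are highest in mutant replicate 8 and 9 of 12 lowest in wild type replicate 1.

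Among the 18 genes of wax synthesis, 16 had higher and 2 lower means in the mutant, with a median log2 fold change of 0.34. The mean log2(FPKM + 1) over the 18 was 7.07, 7.09, 6.88 and 6.90 in mutant replicates 5 to 8, against 6.58, 6.60, 6.77 and 6.58 in wild type replicates 1 to 4. All 4 mutants thus lay above all 4 wild types on this mean. Above wild type without overlap were 4 wax genes with all libraries (4.15% of all genes) and 10 without wild type replicate 3 (7.74% of all genes). With any other library left out there were 4 to 8. The 10 green tissue markers were at 9.54, 9.92, 9.57 and 9.78 log2 units in mutant replicates 5 to 8, against 9.46, 9.09, 9.74 and 9.11 in wild type replicates 1 to 4, so that the genotypes overlapped and wild type replicate 3 was the highest wild type on both lists. All 10 green tissue markers had higher means in the mutant, with a median log2 fold change of 0.34, so a rise of this size was not particular to wax. The 5 epidermis markers were at 5.45 to 6.13 log2 units in the mutants and at 5.35 to 5.996 in wild type and overlapped. The part of green tissue or epidermis in the wax values was not tested.

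The elongation cycle starts with a ketoacyl-CoA synthase (KCS), which sets the chain length, and is completed by a reductase (KCR1), a dehydratase (PAS2) and an enoyl-CoA reductase (CER10). KCS6 (AT1G68530, also CER6), the main synthase for shoot wax, had 326, 359, 319 and 311 FPKM in mutant replicates 5 to 8, against 214, 214, 284 and 250 FPKM in wild type replicates 1 to 4. The mutants did not overlap wild type, at a log2 fold change of 0.46 (SE 0.11). CER2 (AT4G24510), a partner protein that lets KCS6 reach the longest chains, had 114, 141, 88.1 and 89.2 FPKM in the mutants, against 58.2, 69.0, 83.05 and 56.2 FPKM in wild type. It was the wax gene with the largest difference among those that did not overlap, 0.68 (SE 0.18).

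KCR1 (AT1G67730) was steadier, with 136 to 154 FPKM in the mutants and 116 to 129 FPKM in wild type and no overlap, at a log2 fold change of 0.25 (SE 0.07). PAS2 (0.24) and CER10 (0.30) had differences of the same size, but one library or more crossed the other genotype's range. KCS6 and the enzymes of the other 3 steps thus had higher means in the mutant.

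The KCS genes did not move as one. In level, KCS6 stood first of the 19 KCS genes in the expression table, at 329 ± 20.9 FPKM in the mutant and 241 ± 33.6 FPKM in wild type (mean ± SD, n = 4 each). KCS10 (AT2G26250, FIDDLEHEAD), which keeps epidermal surfaces from fusing, came next at 146 ± 25.3 FPKM in the mutant and 116 ± 22.04 FPKM in wild type. KCS1 followed at 96.8 ± 6.27 FPKM in the mutant and 108 ± 17.2 FPKM in wild type, then KCS2, KCS20 and KCS9 with means over all libraries of 69.0, 67.2 and 51.8 FPKM. KCS2 and KCS20 are close paralogues that may share reads, so their values are uncertain. The orders of KCS10 and KCS1 in wild type, and of KCS2 and KCS20 in both genotypes, are within their spread. KCS5 (AT1G25450, CER60), a near relative of KCS6, was low, with 13.3, 10.5, 6.24 and 13.1 FPKM in the mutants and 5.79, 8.19, 5.45 and 5.02 FPKM in wild type. It had the largest log2 fold change of the wax genes, 0.70 (SE 0.23), although mutant replicate 7 lay inside the wild-type range. KCS1 (-0.15) and KCS20 (-0.02) had lower means in the mutant. KCS20 was 0.13 without wild type replicate 1.

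On the alkane route, CER1 (AT1G02205) and CER3 (AT5G57800) act together to make alkanes, which the hydroxylase MAH1 (AT1G57750) turns into secondary alcohols and ketones. CER1 had 294, 203, 242 and 319 FPKM in the mutants, against 169, 172, 210 and 190 FPKM in wild type. CER3 had 233, 285, 211 and 176 FPKM in the mutants, against 120, 138, 194 and 154 FPKM in wild type. In each of them a single mutant library, replicate 6 for CER1 and replicate 8 for CER3, fell below the highest wild type, replicate 3. Their log2 fold changes were 0.49 (SE 0.15) and 0.58 (SE 0.18). MAH1, the most abundant wax transcript, overlapped widely, with 357 to 539 FPKM in the mutants and 315 to 500 FPKM in wild type (0.26, SE 0.17).

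On the alcohol route, the reductase CER4 (AT4G33790) makes primary alcohols, which WSD1 (AT5G37300) joins to fatty acids as wax esters. WSD1 had 147, 137, 117 and 112 FPKM in the mutants, against 97.9, 110.4, 95.4 and 84.4 FPKM in wild type. The groups did not overlap, though mutant replicate 8 was close to wild type replicate 2, and the log2 fold change was 0.39 (SE 0.11). CER4 had 70.9 to 95.2 FPKM in the mutants, and in wild type 41.6 to 51.2 FPKM in 3 libraries and 87.2 FPKM in replicate 3. Both routes thus had higher means in the mutant, and wild type replicate 3 was within the mutant range for CER4 and MAH1.

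The acyl-CoA synthetases LACS1 and LACS2 activate fatty acids. LACS1 (AT2G47240, CER8), linked to wax and cutin, had 319, 346, 277 and 221 FPKM in the mutants, against 156, 176, 223 and 184 FPKM in wild type, with mutant replicate 8 just below wild type replicate 3 and a log2 fold change of 0.64 (SE 0.16). LACS2 (AT1G49430), which is mainly known for cutin although it is counted with wax here, had 59.7 to 94.96 FPKM in the mutants and 48.4 to 66.9 FPKM in wild type. Its libraries followed the order of the cutin genes: mutant replicates 8 and 5 were high and wild type replicate 1 was lowest.

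**Figure D2:**
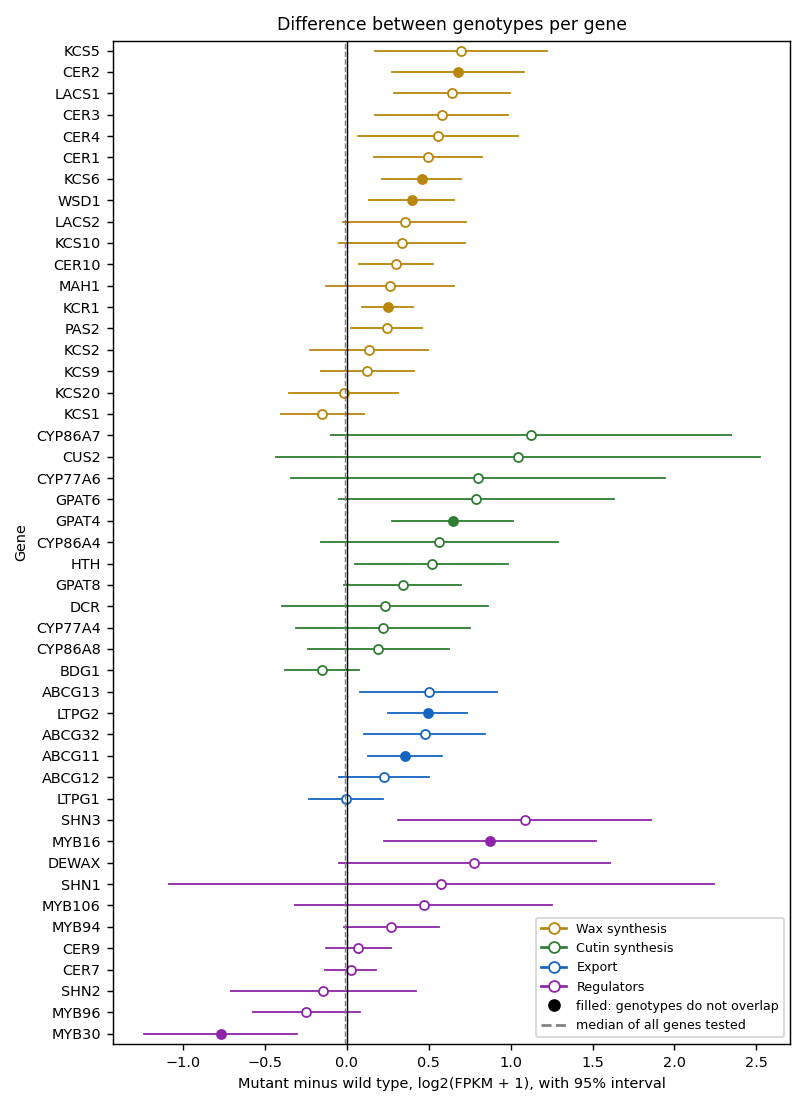
Log2 fold change of mutant over wild type for each gene on the log2(FPKM + 1) scale with its 95% interval from limma, coloured by branch, with filled points where the genotypes did not overlap. Wax and export genes have short intervals mostly above 0, whereas cutin genes such as CUS2 (1.04) have the widest intervals, along with SHN1.

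Among the 12 genes of cutin synthesis, 11 had higher and 1 lower means in the mutant, and the median log2 fold change was 0.54, numerically above that of wax. The spread was also larger. The median coefficient of variation between libraries was 40.5% in the mutants and 23.9% in wild type for cutin genes, against 17.2% in the mutants and 15.5% in wild type for wax genes. Over all genes tested it was 12.5% in the mutants and 11.2% in wild type. GPAT4 was the 1 cutin gene without overlap when all libraries were used (4.15% of all genes were above wild type in this way). Without mutant replicate 6 there were 8 (6.79% of all genes), and with any other library left out there was 1.

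GPAT4, GPAT6 and GPAT8 are acyltransferases that load hydroxylated fatty acids onto glycerol. GPAT4 (AT1G01610) had 63.1, 52.6, 49.2 and 64.7 FPKM in the mutants, against 27.6, 32.4, 44.8 and 42.3 FPKM in wild type, a log2 fold change of 0.65 (SE 0.16). GPAT6 (AT2G38110), needed for cutin of petals, had 26.2, 12.8, 19.9 and 43.4 FPKM in the mutants, against 7.36, 13.5, 16.6 and 17.3 FPKM in wild type. Mutant replicate 6 lay inside the wild-type range for GPAT6 and mutant replicate 8 stood highest. GPAT8, a close paralogue of GPAT4 with which it may share reads, had 15.9 to 24.3 FPKM in the mutants and 12.1 to 17.8 FPKM in wild type.

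The CYP86A enzymes hydroxylate the end of the fatty acid and the CYP77A enzymes its middle. CYP86A7 (AT1G63710) had 16.5, 4.95, 11.3 and 22.7 FPKM in the mutants, against 1.27, 7.08, 8.33 and 6.85 FPKM in wild type. Its log2 fold change was the largest of the cutin genes, 1.12, with an SE of 0.54. Mutant replicate 6 lay below 3 of the wild types and wild type replicate 1 below all other libraries, and the log2 fold change was 0.65 without wild type replicate 1. CYP77A6 (AT3G10570), required for petal cutin, had 27.5, 10.5, 22.0 and 48.4 FPKM in the mutants, against 5.18, 14.8, 21.7 and 17.3 FPKM in wild type (0.80, SE 0.50, and 0.40 without wild type replicate 1). CYP86A4 had 5.11 to 17.7 FPKM in the mutants and 5.63 to 8.37 FPKM in wild type. CYP86A8 (LACERATA), whose loss fuses organs, was nearly level, at 15.1 ± 1.05 FPKM in the mutant and 13.5 ± 3.84 FPKM in wild type (SD, n = 4 each). CYP77A4 was the lowest cutin gene, at 2.14 ± 0.97 FPKM in the mutant and 1.62 ± 0.37 FPKM in wild type (SD, n = 4 each).

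CUS2 (AT5G33370) is a cutin synthase that links cutin monomers in the wall. It had 279, 90.5, 208 and 492 FPKM in the mutants, against 31.9, 135, 175 and 186 FPKM in wild type. Mutant replicate 6 was below 3 wild types and wild type replicate 1 was below all other libraries. Its log2 fold change was 1.04 with an SE of 0.65 and a 95% interval from -0.43 to 2.52. It was 0.46 without wild type replicate 1 and 0.67 without mutant replicate 8.

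DCR (AT5G23940), an acyltransferase of petal and leaf cutin, had the highest mean of the cutin genes in wild type, and the highest after CUS2 in the mutant, and overlapped throughout, with 265, 141, 207 and 340 FPKM in the mutants and 140, 196, 191 and 262 FPKM in wild type. HTH (AT1G72970, HOTHEAD), which oxidizes fatty acids and whose loss fuses flowers, had 113 to 204 FPKM in the mutants and 75.5 to 127 FPKM in wild type (0.52, SE 0.21). BDG1 (BODYGUARD), a wall-bound hydrolase of epidermal cells, was the exception in the other direction, with 22.6 ± 2.74 FPKM in the mutant and 25.1 ± 1.80 FPKM in wild type (SD, n = 4 each).

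**Figure D3:**
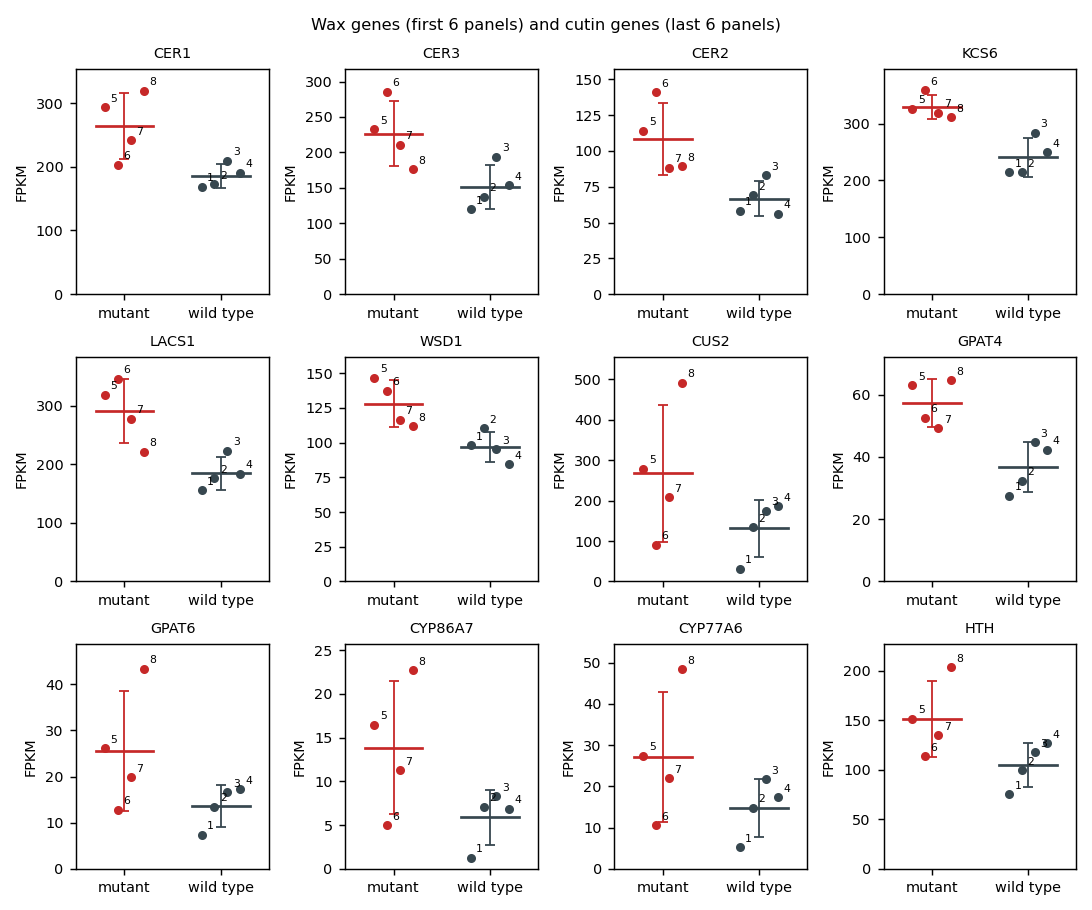
FPKM of 6 wax genes and 6 cutin genes in each library (points, labelled with the replicate number), with the mean and SD of each genotype, mutants left of wild type, from 0. In these 6 wax panels the genotypes are apart or nearly so, but of all 18 wax genes only 4 did not overlap, and MAH1 and CER4, not shown, overlapped. In CUS2, the cutin gene that varied most between mutants, the mutants run from 90.5 to 492 FPKM and wild type from 31.9 to 186 FPKM.

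Most cutin genes shared an order of libraries that most wax genes did not. Within the mutants, replicate 8 was highest in 10 of 12 cutin genes and replicate 6 lowest in 10 of 12, and within wild type, replicate 1 was lowest in 9 of 12. Mutant replicate 8 also had the most genes listed at 0 FPKM, 2461, against 1233 to 1884 in the other libraries, and the part of this in the cutin values was not tested. In most wax genes the order within the mutants was the other way: replicate 6 was highest in 11 of 18 and replicate 8 lowest in 11 of 18. Within wild type, replicate 3 was highest in 11 of 18. Some wax genes, such as CER1 and KCS10, had the cutin order: mutant replicate 8 was highest in 4 of 18 and replicate 6 lowest in 3. The mean over the 12 cutin genes was 5.17, 4.37, 4.83 and 5.53 log2 units in mutant replicates 5 to 8, against 3.84, 4.53, 4.71 and 4.71 in wild type replicates 1 to 4, so that the genotypes overlapped. The 5 epidermis markers had 5.88, 5.45, 5.72 and 6.13 log2 units in mutant replicates 5 to 8, against 5.35, 5.61, 5.71 and 5.996 in wild type replicates 1 to 4, with the same libraries at the top and bottom of each genotype, apart from a near tie of wild type replicates 3 and 4 in cutin. The same libraries were at the top and bottom of each genotype in the mean of 2 tapetum genes, in the suberin gene FAR1 and in WUS. Neither tapetum gene had this order by itself: LAP6 was highest in mutant replicate 5 and TKPR1 lowest in wild type replicate 2. WUS averaged only 0.90 FPKM, and CLV3, also low, had wild type replicate 1 as its highest wild type. That tapetum mean was 3.54, 3.35, 3.48 and 3.56 log2 units in the mutants, against 3.33, 3.38, 3.41 and 3.60 in wild type. The green tissue markers, the mean of STM and KNAT1, and the touch genes below had other orders. Outside the cutin genes and epidermis markers, the order was thus seen in FAR1 and, at a low level, in WUS. The part of epidermal content in the cutin values was not tested.

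Wild type replicate 1 also stood apart in 9 touch and early stress genes such as ZAT12 and WRKY40, whose mean lay between 2.27 and 2.94 log2 units in the mutants, against 6.31 for wild type replicate 1 and 4.75, 4.15 and 2.77 for the other wild types. The part of that response in the cuticle values was not tested. Without wild type replicate 1 and mutant replicate 8 together, a choice made after the values were seen, the median log2 fold change was 0.35 for wax, with 17 of 18 genes positive. It was 0.11 for cutin, with 9 of 12 positive, and CUS2 had 0.090, CYP77A6 0.066 and GPAT4 0.46. In most cutin genes, mutant replicate 8 was the highest mutant and wild type replicate 1 the lowest wild type. A fall of the cutin median was thus set by the choice of libraries, and nothing is read from its contrast with wax.

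**Figure D4:**
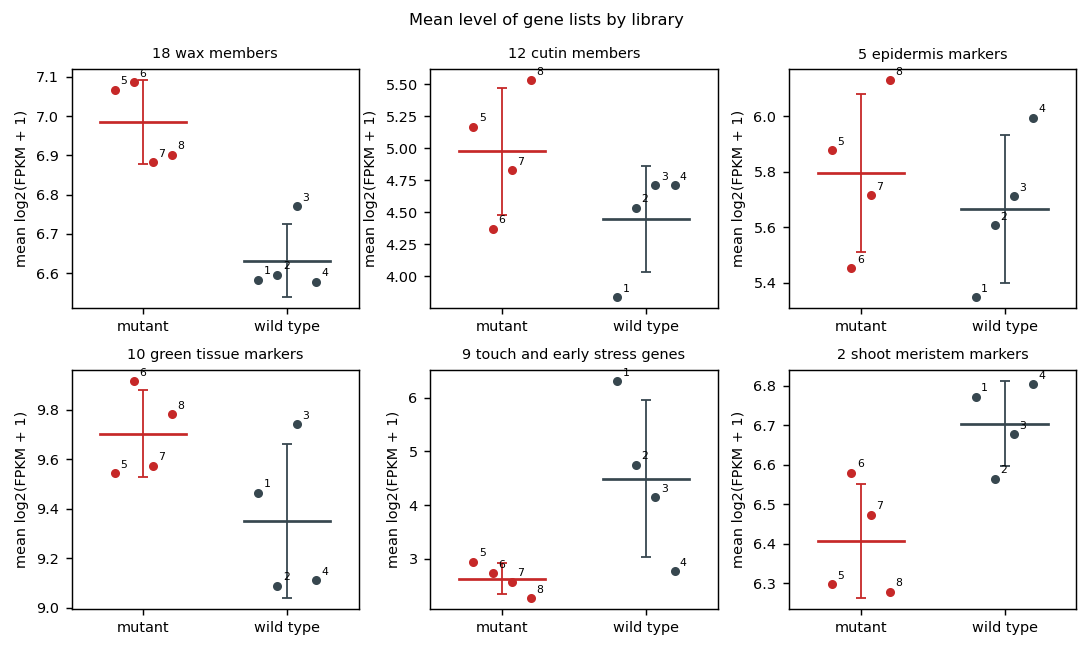
Mean log2(FPKM + 1) of 6 gene lists in each library (points, labelled with the replicate number), with the mean and SD of each genotype, mutants left of wild type; the axes do not start at 0. Mutants and wild types are apart for wax (6.88 or more against 6.77 or less), overlap for cutin and epidermis, and wild type replicate 1 is highest for touch and early stress.

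Among the export genes, ABCG transporters carry cuticle lipids through the plasma membrane and the LTPG proteins, anchored at its outer face, help them on through the wall. Of 6 genes, 5 had higher means in the mutant and the median log2 fold change was 0.42. ABCG11 (AT1G17840), a half-transporter for wax and cutin whose promoter holds the 2 L1 boxes printed above, had 65.4, 60.7, 54.6 and 62.8 FPKM in the mutants, against 40.1, 46.7, 54.04 and 49.2 FPKM in wild type. The groups just failed to meet, mutant replicate 7 being next to wild type replicate 3, and the log2 fold change was 0.36 (SE 0.10).

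Its wax partner ABCG12 (CER5) overlapped, with 37.6 to 53.8 FPKM in the mutants and 34.7 to 40.4 FPKM in wild type. The cutin exporters ABCG32 and ABCG13, ABCG13 being known for petals, had log2 fold changes of 0.48 (SE 0.16) and 0.50 (SE 0.18), and ABCG13 had 18.5 to 28.2 FPKM in the mutants and 11.1 to 20.4 FPKM in wild type. Wild type replicate 1 was the lowest of all libraries in 5 of the 6 export genes.

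The LTPG pair differed. LTPG2 (AT3G43720) had 132, 122, 106 and 135 FPKM in the mutants, against 74.1, 88.02, 92.03 and 96.4 FPKM in wild type, without overlap and at a log2 fold change of 0.49 (SE 0.11). LTPG1 (AT1G27950), the more abundant, had 437, 494, 417 and 359 FPKM in the mutants and 427, 432, 410 and 432 FPKM in wild type. Its log2 fold change was -0.0035, with a 95% interval from -0.23 to 0.22.

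Among the regulators, MYB30, MYB94 and MYB96 are related MYB factors that activate wax genes, MYB96 and MYB94 in drought and MYB30 also in defence. MYB30 (AT3G28910) had 9.44, 5.82, 10.03 and 7.89 FPKM in the mutants, against 21.0, 14.7, 12.2 and 12.02 FPKM in wild type. It was the 1 cuticle gene below wild type in every mutant, at a log2 fold change of -0.77 (SE 0.21), and was -0.61 without wild type replicate 1, which was highest. MYB96 (AT5G62470), the most abundant regulator, had 43.4 to 50.9 FPKM in the mutants and 41.7 to 70.5 FPKM in wild type, again with wild type replicate 1 highest (-0.25, SE 0.14, and -0.13 without that library). MYB94 (AT3G47600) had 10.7 to 15.0 FPKM in the mutants and 8.72 to 11.6 FPKM in wild type (0.27, SE 0.13). MYB94 and MYB96 are close paralogues that may share reads. Of these 3 activators of wax, 2 thus had lower and 1 had higher means in the mutant, while 16 of the 18 wax genes had higher ones.

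MYB16 and MYB106 are MIXTA-type factors of epidermal cell shape and cuticle. MYB16 (AT5G15310) had 35.2, 20.6, 27.0 and 31.996 FPKM in the mutants, against 7.77, 16.02, 19.8 and 19.5 FPKM in wild type. It did not overlap, though mutant replicate 6 was close to wild type replicate 3. Its log2 fold change was 0.87 (SE 0.28), and 0.59 without wild type replicate 1, which was lowest. MYB106 (AT3G01140) overlapped, with 7.03, 4.04, 8.52 and 12.9 FPKM in the mutants and 3.13, 4.03, 8.45 and 6.38 FPKM in wild type (0.47, SE 0.34, and 0.24 without mutant replicate 8).

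The SHINE factors SHN1, SHN2 and SHN3 activate cutin and wax genes. SHN3 (AT5G25390) had 24.5, 36.04, 25.4 and 16.7 FPKM in the mutants, against 9.18, 7.97, 23.4 and 8.72 FPKM in wild type. Wild type replicate 3 alone reached the mutants, and the log2 fold change was 1.09 (SE 0.34) with it and 1.42 without it. SHN1 (AT1G15360, WIN1) had 13.8, 4.26, 10.3 and 35.8 FPKM in the mutants, against 1.38, 10.4, 12.3 and 17.3 FPKM in wild type, with the library order of the cutin genes. Its log2 fold change was 0.58 (SE 0.73), and -0.064 without wild type replicate 1. SHN2 (AT5G11190) stayed at 0.87 to 1.92 FPKM in the mutants and 0.61 to 2.15 FPKM in wild type.

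DEWAX (AT5G61590), an ethylene response factor that represses wax genes, had 16.8, 29.01, 11.3 and 15.3 FPKM in the mutants, against 4.70, 16.6, 11.1 and 9.20 FPKM in wild type (0.78, SE 0.36). The groups overlapped, with mutant replicate 6 high and wild type replicate 1 low, and the log2 fold change was 0.48 without wild type replicate 1. ERF104 (AT5G61600), the next gene on the chromosome and one of the early stress genes, ran the other way, with 1.09 to 2.32 FPKM in the mutants and 51.7, 14.4, 10.6 and 2.96 FPKM in wild type replicates 1 to 4. CER7 (AT3G60500), an exosome ribonuclease that acts on wax gene expression, was level, at 26.8 ± 1.25 FPKM in the mutant and 26.4 ± 1.63 FPKM in wild type, as was the ubiquitin ligase CER9 (AT4G34100), at 39.6 ± 4.58 FPKM in the mutant and 37.6 ± 1.89 FPKM in wild type (SD, n = 4 each). Without mutant replicate 8 or wild type replicate 1, the median over the 11 regulators, 0.27 with all libraries, was 0.092 and 0.090.

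**Figure D5:**
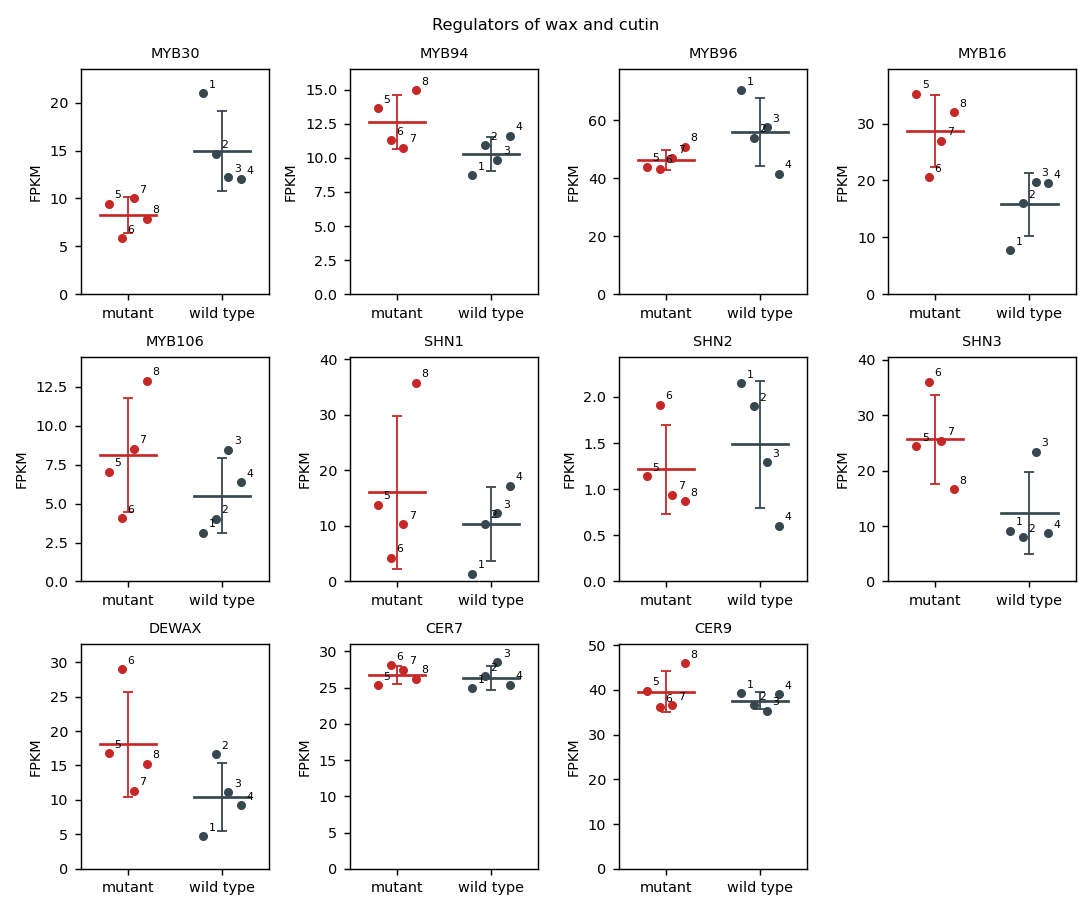
FPKM of the 11 regulators in each library (points, labelled with the replicate number), with the mean and SD of each genotype, mutants left of wild type, from 0. MYB16 is higher and MYB30 lower in every mutant library, SHN1 runs from 4.26 to 35.8 FPKM in the mutants, and CER7 hardly varies.

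The authors' deposited table of differential genes, a separate fit of the same contrast, lists 12 of the 47 genes. It gives 11 as higher in the mutant, a direction in which it lists 2.17% of all genes in the expression table, and MYB30 as lower, a direction in which it lists 1.52%. Of the 12, 8 are wax genes, 1 is a cutin gene, 2 are export genes and 1 is a regulator. In the authors' deposited table the largest increase was KCS5 (log2 fold change 0.82, adjusted p = 0.0445), followed by CER2 (0.70, adjusted p = 0.0103), LACS1 (0.65, adjusted p = 0.00405), GPAT4 (0.64, adjusted p = 0.0125) and CER3 (0.58, adjusted p = 0.0439). The authors' deposited table gives MYB30 as -0.85 (adjusted p = 0.0146). It also holds CER1, KCS6, KCR1, WSD1, ABCG11 and LTPG2 (log2 fold changes 0.25 to 0.51), and does not list MYB16 or SHN3.

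Other cuticle genes, not in the list of 47, were tested on the same scale. Of 38 such genes 35 were in the expression table and 27 reached a mean of 1 FPKM. By limma with Benjamini-Hochberg adjustment 0 of 27 passed, against 0.186% of all genes tested. An unadjusted p under 0.05 was found for 3 of 27, which is near the share of all genes (6.91% higher and 5.62% lower), so nothing is read from it. In direction 20 were positive and 7 negative, against 47.6% of all genes positive. Their median log2 fold change was 0.10, against -0.01 over all genes tested. The smallest p belonged to ACC1 (AT1G36160), the cytosolic acetyl-CoA carboxylase that supplies malonyl-CoA to elongation, at 69.5, 63.9, 68.03 and 75.3 FPKM in the mutants and 60.5, 56.05, 59.9 and 61.3 FPKM in wild type, without overlap (log2 fold change 0.21, SE 0.07, limma adjusted p = 0.248). Next was AT4G24140, annotated as an alpha/beta-hydrolase, at 9.80, 3.19, 8.39 and 15.2 FPKM in the mutants and 0.37, 3.31, 5.08 and 3.31 FPKM in wild type (1.37, SE 0.53, limma adjusted p = 0.346). Its mutant libraries had the same order as in CUS2, and wild type replicate 1 was the lowest library of both genes.

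Of 11 genes for suberin, the related polyester of roots and wounds, 8 were in the expression table and 1 reached a mean of 1 FPKM. That gene, FAR1 (AT5G22500), a reductase for suberin alcohols, had 35.3, 13.5, 20.1 and 49.0 FPKM in the mutants and 18.2, 34.5, 34.1 and 42.7 FPKM in wild type (log2 fold change -0.23, SE 0.40, limma adjusted p = 0.840). By limma 0 of the 5 epidermis markers passed (0.186% of all genes tested) and 1, PDF2, was higher at an unadjusted p under 0.05 (6.91% of all genes). PDF2 had 60.3 to 75.7 FPKM in the mutants and 42.6 to 63.8 FPKM in wild type (0.33, SE 0.13, limma adjusted p = 0.367), and HDG2 had 10.6 to 19.2 FPKM in the mutants and 10.5 to 15.03 FPKM in wild type (0.16, SE 0.18, limma adjusted p = 0.748).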

How the data were processed

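The authors deposited FPKM values for 22281 genes in 8 libraries and, per the file headers, a table of differential genes (825 rows, 822 genes) that holds log2 fold changes with raw and adjusted p-values. The submitters' processing notes name RSEM, DESeq2 and TAIR10 without versions; which aligner, annotation release or filter was used is not given in the sources used here. FPKM divides out library total, so abundant genes can shift others, and no counting interval can be given. Steps between low values, compared with wild type replicate 1, gave a clear relative depth for 2 of the 7 other libraries, so depth is taken as unknown.

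Groups and replicate numbers came from sample titles. The 17706 genes averaging at least 1 FPKM entered a 2-sided limma fit (limma 3.58.1, R 4.3.3, with a trend of variance on level) of log2(FPKM + 1), with Benjamini-Hochberg adjustment over all of them and a threshold of 0.05. The scale understates the change of low genes. The code was tested on simulated data. The members and lists were chosen with earlier results of these data known. Genes given in full were all regulators, members whose genotypes did not overlap, and the 2 highest and 2 most different of each branch; of other lists, called genes or the 2 with the smallest p. Further members are given as values. Names matched RefSeq for 46 of 47 codes; CUS2 is named after the member list. Deposited files hold no coordinates. Windows come from TAIR10.1, whose nuclear chromosome lengths are those of TAIR10. Plots used matplotlib 3.10.9.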

Additional observations from a re-analysis of the deposited data

Results flagged for a closer look

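In 94 groups of 4 libraries (47 genes, mutant and wild type), 1 library stood far from the other 3 of its group by Dixon's criterion, where chance flags about 1 in 20 groups. It was SHN3 in wild type replicate 3, at 23.4 FPKM against 7.97 to 9.18 FPKM in the other wild types, a gap of 0.922 of the range. That library was also the highest wild type for CER4 and MAH1 and for the green tissue markers.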

How the results depend on the processing

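No paired analysis was possible because the groups share no replicate number. The number of cuticle genes past the adjusted limma threshold was 0 under every scaling tried, pseudocount (0.1) and filter (none, or a mean FPKM of 5), and when 1 library was left out it ran from 0 to 1; the 1 was SHN3 without wild type replicate 3, its outlying library, and is a count, not support for that gene. Over all genes the number was 33, against 12 with no filter, 19 after rescaling to TPM, and 0 (without wild type replicate 2) to 104 (without wild type replicate 3) with 1 library left out. It was 0 in all of these for the other cuticle genes, the epidermis markers and the suberin genes. With 1 library left out, the median log2 fold change was 0.28 to 0.41 for wax, 0.35 to 0.66 for cutin, 0.31 to 0.47 for export and 0.09 to 0.34 for regulators. Without wild type replicate 1 and mutant replicate 8 together, a setting chosen after seeing the data, it was 0.25 for export and 0.045 for regulators. The cause was not tested, and nothing is read from these 2 values. Counting LACS2 with cutin gave 0.34 for wax and 0.52 for cutin. FAR1 ranged from -0.52 without mutant replicate 8 to 0.073, a turned direction, without mutant replicate 6. Of the log2 fold changes of named genes, the other 418 kept their direction or moved by less than the spread between replicates. For members, leaving out 1 library cannot move the value by more than that spread, whatever the data. Nothing is therefore read from the count in those settings. SHN1, CER7, CER9 and LTPG1 also changed sign with some single library left out. Read totals are unknown, so the precision of low genes such as SHN2 and CYP77A4 cannot be given.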
